A study of Mus musculus with 23 samples.

Results

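The genes described are 9 CC chemokines (Ccl2, Ccl3, Ccl4, Ccl5, Ccl7, Ccl8, Ccl11, Ccl20 and Ccl28) and the chemokine receptor Ccr2. They were chosen by name: every probe set that the platform annotation gives a single one of these 10 symbols was taken, which made 10 of the 18201 genes so named and 15 of the 45037 probe sets that are not controls. Ccr2 had 4 probe sets, Ccl28 had 3 and each other gene had 1. RNA of mouse colon was hybridised to Affymetrix mouse genome arrays, 1 array per animal. The mice were C57BL/6J, a common inbred strain, aged 12 to 14 weeks per the labels. They drank water with 3% dextran sulfate sodium (DSS), a polymer used to damage the colonic lining, and separate animals were taken before DSS (day 0, 5 arrays) and on day 2, day 4 and day 6 of DSS (6 arrays each). No allele or other agent is named in the labels, and the piece of colon that was taken is not given in the sources used here.

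Chemokines are small secreted proteins that draw white blood cells along a gradient, and the CC family is named for its adjacent cysteines. Ccl2 and Ccl7 act through Ccr2, the receptor by which inflammatory monocytes leave the bone marrow and enter injured tissue. Ccl11 (eotaxin) draws eosinophils through Ccr3, while Ccl20 and Ccl28 are made by epithelial cells and bind Ccr6 and Ccr10.

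The promoters of Ccl8 and Ccl20 are shown because these are the only members whose upstream sequence held one of the motifs searched. The RefSeq promoter table (build GRCm38.p6) had an entry for 5 of the 10 genes, namely Ccl3, Ccl8, Ccl20, Ccl28 and Ccr2. The 250 bases before each start were searched on both strands for a TATA box (TATAAA), AP-1 (TGANTCA), STAT (TTCNNNGAA), the STAT6 site, which has a longer spacer, and the NF-kappaB consensus. Both are written 5′ to 3′ on the plus strand, chr11:82114935-82115184 for Ccl8 and chr1:83116516-83116765 for Ccl20, and capitals mark the match.
Ccl8: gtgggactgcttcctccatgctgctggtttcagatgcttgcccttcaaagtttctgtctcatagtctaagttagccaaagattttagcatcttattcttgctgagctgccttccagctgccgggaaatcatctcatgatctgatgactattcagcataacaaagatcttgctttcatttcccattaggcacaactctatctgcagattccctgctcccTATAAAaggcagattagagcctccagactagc
Ccl20: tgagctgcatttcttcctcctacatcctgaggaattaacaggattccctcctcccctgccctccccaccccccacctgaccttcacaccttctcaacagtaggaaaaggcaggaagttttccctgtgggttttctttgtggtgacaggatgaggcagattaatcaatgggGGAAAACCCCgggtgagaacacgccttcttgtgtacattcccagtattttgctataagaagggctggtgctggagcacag
The Ccl8 match is a TATA box from -32 to -27 relative to the start. Among 32851 promoters of the same length, 12.4% held that motif. The Ccl20 match is the NF-kappaB consensus, read on the minus strand, from -80 to -71, and 3.9% of the promoters held one. AP-1 letters were found in 6.75% of all promoters, STAT in 7.02% and STAT6 in 5.85%, and in none of the 5 member windows.

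The values are the authors' signal intensities, scaled so that every array has a trimmed mean of 500, and the number of arrays limits their precision. Signals of different probe sets cannot be set against each other. Tests used limma on log2(signal + 16) over 12464 genes, with Benjamini-Hochberg adjustment and a threshold of 0.05. Fold changes are on that scale and understate those of dim genes. Ccl3 lay above its own array's median on 4 arrays, all of day 6, and so missed the filter of 5 arrays. The other 9 genes were tested, and each would also have met the filter on the arrays of the earlier days alone. On 4 arrays the tissue stood apart. Summed pancreas markers (7 genes) were 196196 on day 2 mouse 6 and 59041 on day 6 mouse 1, against 2479 to 11496 on the other arrays. Summed squamous epithelium markers (7 genes) were 585 on day 2 mouse 8 and 844 on day 4 mouse 8, against 6154 or more on every other array. Both of those arrays also had the lowest summed skeletal muscle markers (6 genes), at 1346 and 1255, against 3065 to 57685 on the others. Signals of the hybridization controls on the log2 scale were lower late in the course, at 11.40 ± 0.06, 11.33 ± 0.11, 11.00 ± 0.12 and 10.88 ± 0.19 on days 0, 2, 4 and 6 (SD). RNA quality signs moved with the days as well. The log2 ratio of the 3′ to the 5′ actin control was 0.399 to 0.446, 0.395 to 0.556, 0.527 to 0.704 and 0.475 to 0.588 on days 0, 2, 4 and 6. That of Gapdh was -0.464 to -0.326, -0.381 to -0.281, -0.270 to -0.183 and -0.295 to -0.194, so days 4 and 6 lay above day 0 without overlap on both. The part of these ratios in the changes of the chemokines was not tested. The median change of all genes was at most 0.06 in either direction in every comparison.

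By day 6, 7 of the 9 tested genes were higher than on day 0 and 1, Ccl28, was lower. Ccl2, Ccl7, Ccl8 and Ccr2 rose 5.62-fold to 8.67-fold and did not overlap with day 0. Ccl4, Ccl5 and Ccl11 rose 1.91-fold to 2.89-fold with overlapping arrays. Among all 12464 genes, 18.1% passed as higher and 14.4% as lower in the same comparison, and 9.93% were higher with no overlap. Without the 4 arrays that stood apart, 8 members again passed. In bulk tissue RNA, more cells of a type and more RNA per cell cannot be told apart. Over the whole course, the moderated F test across the 4 days passed 8 of 9 members, against 43.6% of all genes, and Ccl20 missed it (limma, adjusted p = 0.0827).

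**Figure D1:**
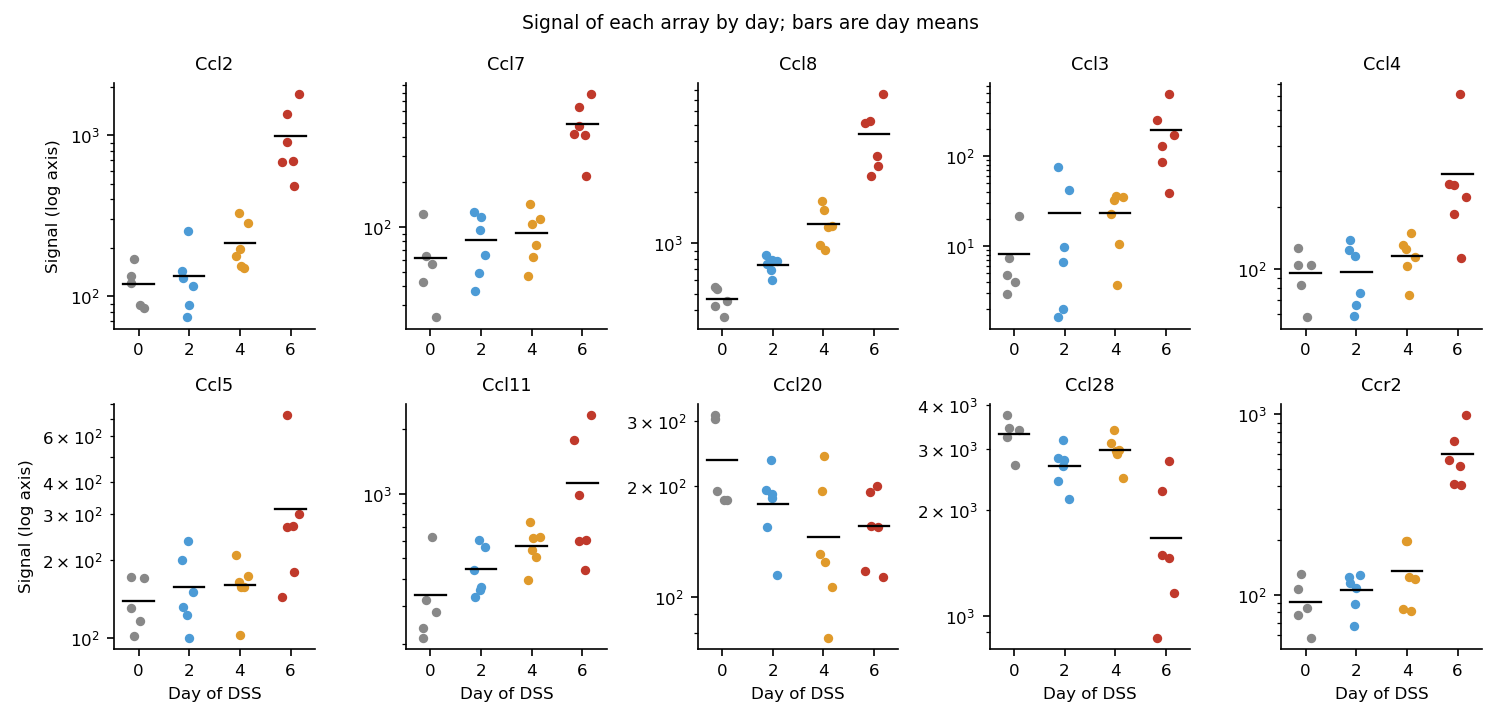
Signal of the brightest probe set of each of the 10 genes on the 23 arrays (log axis), by day of DSS. Each point is 1 mouse and each bar a day mean. Ccl2, Ccl7, Ccl8, Ccl3 and Ccr2 lie higher on every day 6 array than on any day 0 array, Ccl28 is lower on 5 of the 6 day 6 arrays than on any day 0 array, and the day 6 points of Ccl5 and Ccl11 spread over 5.08-fold and 5.24-fold.

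Ccl8, which is made largely by tissue macrophages, was the member that was higher on both day 4 and day 6. On day 0 its signals were 545, 535, 451, 362 and 424. The lowest, median and highest were 604, 761 and 852 on day 2, 903, 1246 and 1771 on day 4, and 2485, 4171 and 7584 on day 6. No 2 neighbouring days overlapped, so the 4 days formed separate bands. Relative to day 0, the log2 change was 0.67 ± 0.22 (SE) on day 2 with an adjusted p of 0.185 in limma and an unadjusted p of 0.00557. On day 4 it was 1.41 ± 0.22 (adjusted p = 0.000305), and on day 6 it was 3.12 ± 0.22, or 8.67-fold (adjusted p = 9.1e-10). The steps between days also passed, at 0.74 for day 4 minus day 2 (adjusted p = 0.0233) and 1.70 for day 6 minus day 4 (adjusted p = 9.64e-06). The step to day 4 missed the threshold without the 4 arrays that stood apart (0.76, adjusted p = 0.0506), without day 4 mouse 1 (adjusted p = 0.057) and without day 4 mouse 3 (adjusted p = 0.062).

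No member passed on day 2 in limma, and Ccl8 was the only 1 of 9 with an unadjusted p under 0.05. Of all genes, 0.0802% passed and 12.8% had an unadjusted p under 0.05 in that comparison, while 1.28% were higher with no overlap. On day 4, Ccl8 was the 1 member that was higher and Ccl20 the 1 that was lower, against 12.1% and 4.34% of all genes, while 7.61% of genes, Ccl8 among them, were higher with no overlap. In the day 4 minus day 2 comparison, Ccl8 alone passed, against 9.45% of genes higher and 4.11% lower, and 4.21% of genes were higher with no overlap, as Ccl8 was.

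Ccl2, the chief attractant of monocytes, stayed near its starting level until day 4. Its day 0 signals were 135, 169.7, 84.0, 88.9 and 122. On day 2 the lowest, median and highest were 74.0, 123 and 254, and they were 149, 186 and 330 on day 4, and 484, 799 and 1799 on day 6. Every day 6 array lay above every earlier array, and the earlier days overlapped with each other. Ccl2 rose 6.89-fold over day 0 on day 6 (log2 change 2.78 ± 0.30, adjusted p = 3.28e-07 in limma), of which the step from day 4 was 2.03 ± 0.29 (adjusted p = 2.64e-05). On day 4 the change of 0.75 ± 0.30 missed the threshold (adjusted p = 0.0896), and it passed when only days 4 and 0 were fitted (adjusted p = 0.0372).

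Ccl7, a second Ccr2 ligand, lies next to Ccl2 on chromosome 11. It had 122, 63.4, 24.7, 56.0 and 42.6 on day 0. The lowest, median and highest were 36.8, 80.1 and 125 on day 2, 47.0, 90.1 and 142 on day 4, and 219, 451 and 780 on day 6. Day 6 stood clear of all other days, which overlapped with each other. The change was 2.73 ± 0.33, or 6.63-fold, for day 6 minus day 0 (adjusted p = 1.58e-06 in limma) and 2.22 ± 0.31 for day 6 minus day 4 (adjusted p = 2.95e-05), while day 4 minus day 0 was 0.51 ± 0.33 (adjusted p = 0.311).

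Ccr2, the receptor of Ccl2 and Ccl7, followed the same order of days. Its brightest probe set gave 77.3, 129.7, 57.7, 84.7 and 108 on day 0. On day 2 the lowest, median and highest were 67.2, 113 and 129, and they were 81.0, 124 and 199.9 on day 4, and 407, 539 and 994 on day 6. All day 6 arrays were above the highest array of any earlier day. The log2 change was 2.49 ± 0.25, or 5.62-fold, for day 6 minus day 0 (adjusted p = 1.22e-07 in limma) and 2.03 ± 0.24 for day 6 minus day 4 (adjusted p = 5.1e-06), and on day 4 it was 0.46 ± 0.25 (adjusted p = 0.215).

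The other Ccr2 probe sets were dimmer. In a fit over all probe sets without a filter, 1421187_at rose by 1.84 ± 0.27 (adjusted p = 2.39e-05) and 1421188_at by 1.39 ± 0.24 (adjusted p = 0.000199) for day 6 minus day 0, both without overlap. In that fit, 7.7% of 45037 probe sets passed as higher, and 9.93% of the 12464 tested genes were higher with no overlap. On days 0, 2 and 4, 1421187_at was above its array's median on 0 arrays and 1421188_at on 3. The fourth, 1460067_at, averaged 83.3 ± 55.5 on day 6 and 39.6 ± 20.4 on day 0 (SD) and did not pass (0.70 ± 0.38, adjusted p = 0.258). On day 6 this probe set was at 126 to 142 on mice 4, 7 and 21 and at 22.1 to 41.4 on mice 1, 3 and 29. Mice 4, 7 and 21 were also the 3 highest on 1421186_at (561 to 994, against 407 to 517). The same held on 1421187_at (183 to 435, against 140 to 163), and not on 1421188_at.

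Ccl3 and Ccl4 (macrophage inflammatory proteins 1 alpha and 1 beta) are neighbouring genes that draw monocytes and T cells. Ccl3 was close to the bottom of the scale at first, with signals of 2.95, 7.42, 21.4, 3.97 and 4.77 on day 0. The lowest, median and highest were 1.61, 8.16 and 75.8 on day 2, 3.73, 27.8 and 36.2 on day 4, and 38.6, 151 and 487 on day 6. All 6 day 6 arrays were above every day 0 and day 4 array, and 2 day 2 arrays reached into their range. In the fit without a filter, Ccl3 was higher by 2.83 ± 0.46 for day 6 minus day 0 (limma, adjusted p = 9.66e-05) and by 2.16 ± 0.44 for day 6 minus day 4 (adjusted p = 0.00219). In that fit over all 45037 probe sets, 7.7% were higher for day 6 minus day 0 and 3.94% for day 6 minus day 4.

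Ccl4 rose 2.44-fold, with 1 animal far above the others. Its signals were 104, 83.1, 104, 57.6 and 126 on day 0. On day 2 the lowest, median and highest were 58.5, 95.3 and 139, and they were 73.7, 119 and 149.9 on day 4, and 113, 240.3 and 716 on day 6. On day 6, 5 arrays were above all day 0 arrays and mouse 3 (113) lay among them. The change was 1.29 ± 0.30 for day 6 minus day 0 (adjusted p = 0.00224 in limma) and 1.03 ± 0.29 for day 6 minus day 4 (adjusted p = 0.0126). The array at 716 was day 6 mouse 1, which carried pancreas markers, and without the 4 arrays that stood apart the day 6 change was 0.99 (adjusted p = 0.00411).

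Ccl5 (RANTES), a product of T cells and NK cells among others, had the smallest change of those that were higher on day 6. Its day 0 signals were 131, 102, 170.2, 116 and 172. The lowest, median and highest were 99.9, 141 and 237 on day 2, 103, 161 and 208 on day 4, and 143, 269 and 727 on day 6. On day 6, 5 of 6 arrays lay above the day 0 range, mouse 3 (179) by little and mouse 29 (727) by most, and mouse 7 (143) lay within it. The change for day 6 minus day 0 was 0.94 ± 0.28, or 1.91-fold (adjusted p = 0.0128 in limma). It did not pass with the hybridization controls as a covariate (0.32, adjusted p = 0.77). For day 6 minus day 4 it was 0.74 ± 0.27 with an adjusted p of 0.048, and 28 of 36 other settings put that step above the threshold. On day 6 mouse 29 the summed signal of 10 T and NK cell markers was 2042, against 614 to 1064 on the other 5 day 6 arrays. Its part in the Ccl5 value was not tested.

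Ccl11, the eotaxin of the set, was higher on day 6, with arrays that ranged widely and overlapped with day 0. On day 0 it had 214, 322, 283, 629 and 238. On day 2 the lowest, median and highest were 333, 404 and 608, and they were 396, 586 and 739.7 on day 4, and 442, 796 and 2318 on day 6. The day 0 array at 629 lay above 3 of the day 6 arrays, and the other day 0 arrays (214 to 322) lay below all of them. Day 6 mice 4, 7 and 21 (984, 1761 and 2318) exceeded every array of the earlier days. The change was 1.53 ± 0.33, or 2.89-fold, for day 6 minus day 0 (adjusted p = 0.000973 in limma). On day 4 it was 0.82 ± 0.33 (adjusted p = 0.0922), which passed without day 0 mouse 4, the array at 629 (1.06, adjusted p = 0.0334). The step from day 4 to day 6 was 0.71 ± 0.31 (adjusted p = 0.107). With the hybridization controls as a covariate the day 6 change was 1.13 and did not pass (adjusted p = 0.269).

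Markers of eosinophils, the cells that eotaxin draws, were dim throughout, and none of the 7 with a probe set was bright enough to be tested. Their summed signal was 180.5 to 397 on day 6 and 193 to 256 on day 0. Epx, the eosinophil peroxidase, was at 3.85 to 14.1 on day 6 and 1.34 to 71.6 on day 0. Ccr3, the eotaxin receptor, was at 1.44 to 7.22 on day 6 and 2.35 to 19.1 on day 0. Siglecf, a surface lectin of eosinophils, was at 48.8 to 88.6 on day 6 and 45.8 to 74.1 on day 0. Il5ra, the receptor of the eosinophil growth factor Il5, was at 8.51 to 172 on day 6 and 19.1 to 27.5 on day 0. The list of type 2 cytokines and targets, some of which induce eotaxins, had 3 of 6 tested genes higher and none lower on day 6. They were Il33, an alarmin (2.79 ± 0.20, adjusted p = 1.09e-09 in limma), Il4ra, the receptor chain of Il4 and Il13 (1.35 ± 0.16), and Stat6, its signal transducer (0.23 ± 0.07, which did not pass after median centring). The list's median change was 0.57, against 0.02 over all genes, of which 18.1% passed as higher and 14.4% as lower. Retnla, Arg1 and Il13ra1 did not pass, and the cytokines Il4, Il5, Il13, Tslp and Il25 were too dim to be tested.

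Ccl20, the epithelial ligand of Ccr6, was lower on day 4 by a narrow margin. Its signals were 302, 194, 183, 183 and 311 on day 0. The lowest, median and highest were 115, 187 and 235 on day 2, 77.5, 128 and 241 on day 4, and 113, 155 and 200.2 on day 6. Day 0 itself fell into 3 arrays near 183 to 194 and 2 near 302 to 311, and every later day overlapped with it. On day 4 the change of -0.68 ± 0.23 just passed (adjusted p = 0.0452 in limma). It missed the threshold in 17 of 35 other settings, among them the one without the 4 arrays that stood apart (-0.67, adjusted p = 0.0597), without day 0 mouse 5 (-0.57, adjusted p = 0.127) and without day 0 mouse 1 (-0.58, adjusted p = 0.12). On day 6 it was -0.53 ± 0.23 (adjusted p = 0.0776), and it passed after median centring (adjusted p = 0.0355). Ccr6 was at 0.31 ± 0.28 for day 6 minus day 0 and did not pass (adjusted p = 0.416).

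Ccl28, the mucosal ligand of Ccr10 that draws IgA plasma cells, fell. The brightest of its 3 probe sets, 1455577_at, had 3245, 3432, 3397, 2695 and 3749 on day 0. On day 2 the lowest, median and highest were 2150.2, 2725 and 3165, and they were 2477, 2961 and 3391 on day 4, and 863, 1478 and 2761 on day 6. Mouse 3 (2761) was the single day 6 array within the day 0 range. The change for day 6 minus day 0 was -1.08 ± 0.19 (adjusted p = 0.000144 in limma) and for day 6 minus day 4 -0.93 ± 0.18 (adjusted p = 0.000817). On day 4 this probe set had changed by -0.15 ± 0.19 relative to day 0 (adjusted p = 0.628).

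The dimmer Ccl28 probe sets disagreed with the brightest on when the fall began. Probe set 1450218_at had 604, 681, 622, 618 and 939 on day 0, and its lowest, median and highest were 277, 461 and 586 on day 2, 296, 349.6 and 421 on day 4, and 119.9, 215 and 274 on day 6. It did not overlap with day 0 on day 2, 4 or 6, where 1.32%, 5.58% and 7.63% of kept probe sets were lower with no overlap. On day 2 its change of -0.61 ± 0.20 did not pass (adjusted p = 0.195). In a fit over kept probe sets it fell by 0.94 ± 0.20 on day 4 (adjusted p = 0.00236) and by 1.75 ± 0.20 on day 6 (adjusted p = 8.05e-07), where 9.06% and 15.3% of kept probe sets passed as lower. The third, 1450217_at, fell by 0.81 ± 0.26 on day 4 (adjusted p = 0.0296) and by 1.55 ± 0.26 on day 6 (adjusted p = 7.63e-05). The mean of the 3 probe sets also passed on day 4 (-0.63, adjusted p = 0.0264). Ccr10, the receptor of Ccl28, was at 6.12 to 80.4 on day 6 and 38.0 to 104 on day 0 and was too dim to be tested.

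**Figure D2:**
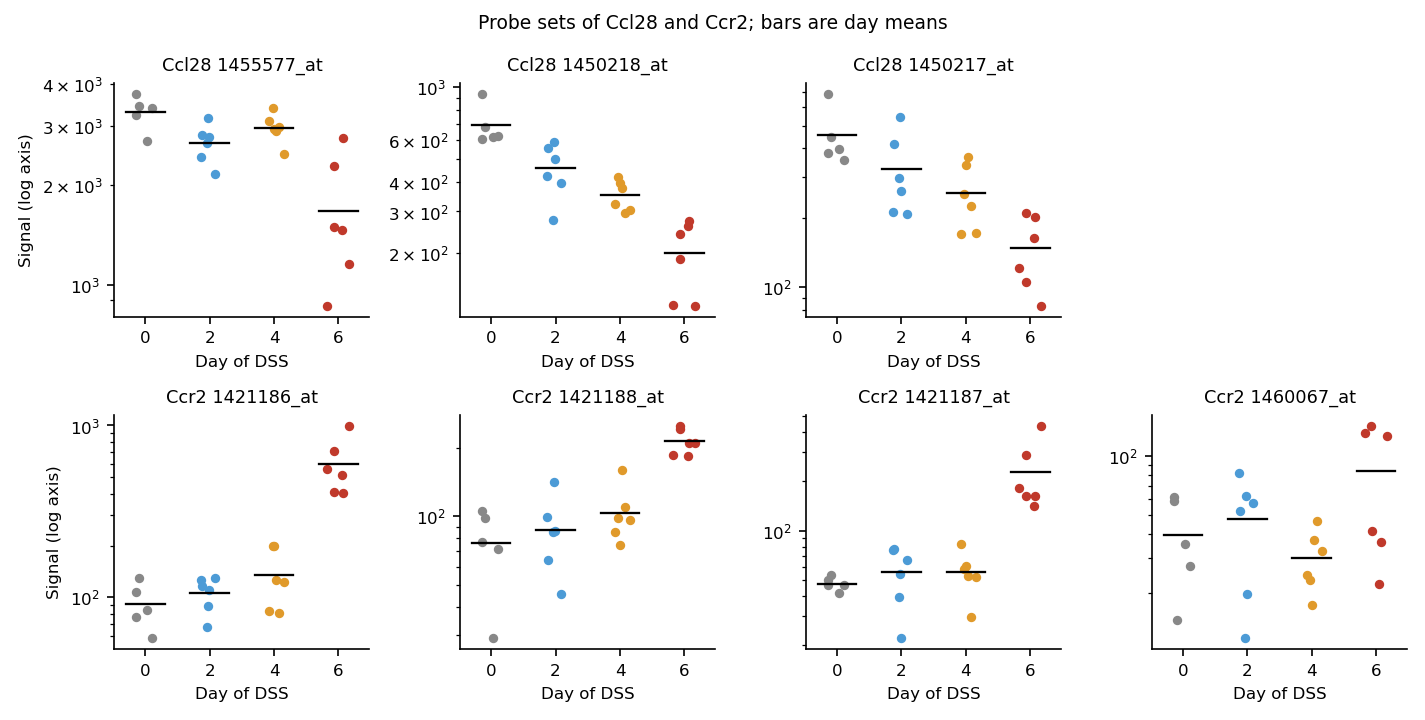
Signal of every probe set of Ccl28 (upper row) and Ccr2 (lower row) on the 23 arrays (log axis), by day of DSS, with bars at the day means. Ccl28 1450218_at lies lower on every day 4 and day 6 array than on day 0, while 1455577_at stays within the day 0 range on 5 of 6 day 4 arrays. Of the Ccr2 probe sets, 3 are higher on all day 6 arrays and 1460067_at is higher on 3 of them.

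**Figure D3:**
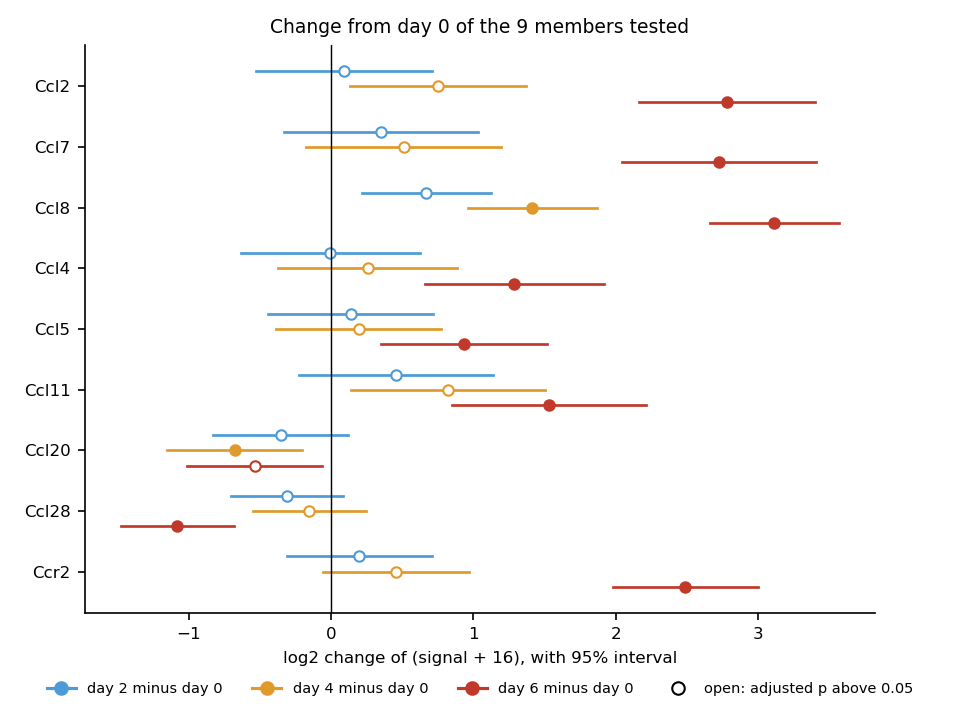
Fitted log2 change of the 9 tested genes from day 0 on days 2, 4 and 6 (points) with the 95% interval of limma (lines). Filled points had an adjusted p of 0.05 or less. Only Ccl8 and Ccl20 are filled on day 4, and all but Ccl20 on day 6.

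Between days 4 and 6, 7 of the 9 tested genes passed. In the day 6 minus day 4 comparison, Ccl2, Ccl7, Ccl8, Ccl4, Ccl5 and Ccr2 were higher and Ccl28 lower, against 9.07% of all genes higher and 13.7% lower. Ccl2, Ccl7, Ccl8 and Ccr2 did not overlap between these days, against 3.13% of genes higher with no overlap.

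The day 6 animals differed from each other, and the members did not peak on the same animal. Ccl2, Ccl7, Ccl8, Ccl11 and Ccr2 were highest on mouse 21. Ccl3 and Ccl4 were highest on mouse 1, on which Ccl11 was lowest (442). Ccl5 was highest on mouse 29, on which Ccl8 was lowest (2485). Mouse 3 was lowest for Ccl2, Ccl7, Ccl3, Ccl4 and Ccr2 and highest for Ccl28. The summed signal of 15 monocyte and macrophage markers was also highest on mouse 21 (64111) and lowest on mouse 3 (39453). Mouse 21 was likewise highest for the neutrophil (13413), fibroblast (94596), squamous epithelium (41806) and skeletal muscle (57685) sums. It was lowest for the colon epithelium sum (158853). The T and NK cell sum was highest on mouse 29 (2042) and the pancreas sum on mouse 1 (59041). Mouse 3 was also lowest for the neutrophil sum (2324). The part of tissue make-up in this order was not tested. Over the 6 arrays, Pearson's r was 0.954 between Ccl2 and Ccl7 (Spearman's rho 0.943, r 0.939 without the 2 arrays farthest from the median) and 0.953 between Ccl8 and Ccr2 (0.943, 0.883). It was 0.938 between Ccl3 and Ccl4 (0.943, 0.769). These had exact permutation p-values of 0.00278, 0.00278 and 0.00694. Of 45 pairs of members, 6 had an unadjusted p under 0.05 and none passed after adjustment, the lowest adjusted p being 0.0625 in the exact permutation test.

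**Figure D4:**
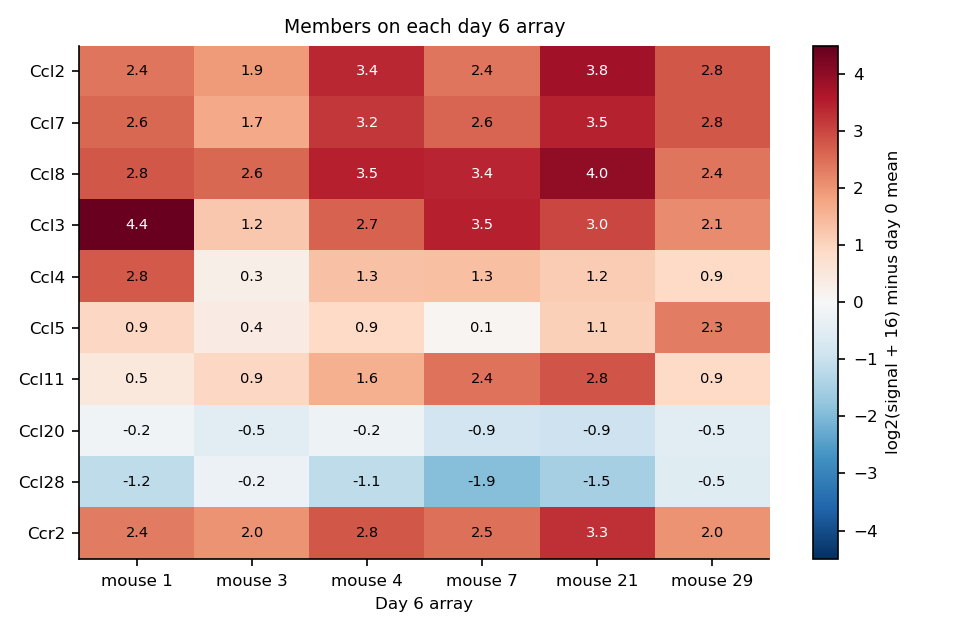
Log2(signal + 16) of each of the 10 genes on each day 6 array minus its day 0 mean (colour and printed value). The monocyte chemokines are strongest on mouse 21 (Ccl8 4.0), Ccl3 on mouse 1 (4.4) and Ccl5 on mouse 29 (2.3), and mouse 3 is weakest for 5 of the genes.

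Among the other CC chemokines, 2 of the 6 that met the filter on the earlier days alone were higher on day 6 and none lower, where 18.1% and 14.4% of all genes passed. Ccl12, which in mice also binds Ccr2, rose by 2.01 ± 0.35 (adjusted p = 0.000115 in limma). Ccl9, a mouse ligand of Ccr1, rose by 1.22 ± 0.17, a call lost with the hybridization controls as a covariate (adjusted p = 0.111). Ccl22, a ligand of Ccr4, met the filter only through its day 6 arrays and is left out of the count. Its signal was 4.33 to 62.6, 43.5 to 84.0, 45.0 to 133 and 64.1 to 225 on days 0, 2, 4 and 6. Ccl6, Ccl17, Ccl25 and Ccl27a were between -0.19 and 0.05 and did not pass. The median of the 6 was 0.04, against 0.02 over all genes. The coding genes Ccl2, Ccl7, Ccl11, Ccl12 and Ccl8 follow each other in that order on chromosome 11, and all 5 were higher on day 6. Ccl1, the next coding gene after Ccl8, was too dim to be tested. It averaged 34.5 ± 22.9 on day 6 and 29.9 ± 26.7 on day 0 (SD).

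Of the other CC receptors and the scavenging receptors, 4 of 6 tested were higher on day 6 and 1 was lower (18.1% and 14.4% of all genes), with a median of 0.95. Ccr1, a receptor of Ccl3 and Ccl5, rose by 1.65 ± 0.20 (adjusted p = 1.67e-06 in limma). Ackr2, which takes up and degrades inflammatory CC chemokines, rose by 1.08 ± 0.22, and Ackr1, which binds chemokines on venules without signalling, by 1.07 ± 0.16. Ccrl2, which presents the attractant chemerin, rose by 0.83 ± 0.21. Ackr4, a scavenger of Ccl19, Ccl21 and Ccl25, fell by 0.82 ± 0.28 (adjusted p = 0.0279), and this call was lost in 7 of 35 other settings, among them the fit of days 6 and 0 alone (adjusted p = 0.0531). With the hybridization controls as a covariate, Ackr2 (adjusted p = 0.236) and Ccrl2 (0.21) did not pass either. On day 4, where 12.1% of all genes were higher, Ackr2 passed (0.75 ± 0.22, adjusted p = 0.0235) and Ackr1 narrowly missed (0.47, adjusted p = 0.0518). The Ackr2 call was lost in 8 of 36 other settings, among them the fit of days 4 and 0 alone (adjusted p = 0.0591) and the covariate (0.431), while Ackr1 passed in 11. Ccl19 and Ccl21a were not analysed here.

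Markers of several cell types also differed between day 6 and day 0, and some of them had moved before most members did. Beside each count below, 18.1% of all genes passed as higher and 14.4% as lower for day 6 minus day 0. On day 6, 12 of the 13 monocyte and macrophage markers that met the filter on the earlier days alone were higher and none lower (median 1.15). The 1 that did not pass changed by -0.62. Cx3cr1, a marker of this list, averaged 269.6 ± 19.0, 231 ± 72.0 and 165 ± 86.6 on days 0, 2 and 4 (SD). All 15 markers with a probe set had a summed signal of 39453 to 64111 on day 6 and 25069 to 32514 on day 0. The brightest genes weigh most in such a sum. On day 0, Plac8 averaged 15074 and Lyz2 4719, against a median sum of 27407. The higher ones included Cd68 (1.82 ± 0.22), Mpeg1 (1.79 ± 0.18) and Fcgr1, a high-affinity Fc receptor (1.79 ± 0.25). Chil3, a chitinase-like protein of monocytes, met the filter only through day 6, with 86.2 to 1586 on day 6 and at most 58.0 on any earlier array, as did Itgam. Neutrophil markers were higher in 3 of the 4 that met the filter on the earlier days, led by S100a9 (5.46 ± 0.56) and S100a8 (4.99 ± 0.50), with sums of 2324 to 13413 on day 6 and 426 to 839 on day 0. Fibroblast markers were higher in 9 of 9 (median 0.74, sums of 58087 to 94596 on day 6 and 39269 to 47957 on day 0). Endothelial markers were higher in 4 of 8 (median 0.50), with sums of 3184 to 5535 on day 6 and 2183 to 2867 on day 0, and venular endothelium is a known source of Ackr1. Of 16 colon epithelium markers 6 were lower and none higher (median -0.14), with sums of 158853 to 203950 on day 6 and 204811 to 220507 on day 0. They included the water channel Aqp8 (-1.23 ± 0.28) and the chloride exchanger Slc26a3 (-0.74 ± 0.18). Squamous epithelium markers were higher in 2 of 7, with sums of 19142 to 41806 on day 6 and 6154 to 10867 on day 0. Skeletal muscle marker sums were 3065 to 57685 on day 6 and 7135 to 15251 on day 0. Endothelial markers were higher in 7 of 8 for day 4 minus day 0 (12.1% of all genes). They were higher in 0 of 8 for day 6 minus day 4 (9.07%). For day 4 minus day 2, 7 of 9 fibroblast markers were higher (9.45%) and 9 of 16 colon epithelium markers lower (4.11%). For day 6 minus day 4 those counts were 3 of 9 (9.07%) and 3 of 16 (13.7%). Another 1 of 16 epithelium markers was higher. The part of any of these markers in the changes of the chemokines was not tested.

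Inducers and feedback genes of inflammation, which act upstream of many chemokine genes, were higher in 4 of the 5 that met the filter on the earlier days alone and lower in none. Their median change was 0.57, against 0.02 over all genes, of which 18.1% passed as higher and 14.4% as lower on day 6. Il1b rose by 3.67 ± 0.33 (adjusted p = 4.4e-08 in limma) and Ptgs2, the inducible cyclooxygenase, by 1.57 ± 0.33. Il6, Tnf and Osm met the filter only through day 6. Il6 was at 507 to 1454 on day 6 and 1.03 to 20.1 on day 0, and Tnf was at 90.5 to 363 on day 6 and 43.0 to 84.98 on day 0.

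The genes whose pattern was most like each member over the 23 arrays differed between members. The likeness is Pearson's r of log2(signal + 16) over arrays that share their day, so it is a description. Fpr2, Acod1 and Cxcl5, named below, met the filter only through their day 6 arrays. On earlier arrays Fpr2 was at most 87.0 and Acod1 at most 11.25, while array medians were 97.3 to 121. Too few earlier arrays of Cxcl5 exceeded their median. The filter thus favoured a high r of these genes with members that rose on day 6. Ccl2 was most like the neutrophil attractants Cxcl1 (r = 0.961) and Cxcl5 (0.943) and the formyl peptide receptor Fpr2 (0.957). Ccl7 was most like Timp1, an inhibitor of metalloproteinases (0.945), Fpr2 (0.933) and Ccl2 (0.930). Ccl8 was most like Osmr, the oncostatin M receptor (0.975), and the Fc receptors Fcgr2b (0.972) and Fcgr4 (0.971). Ccr2 was most like Lrg1 (0.947), Il33 (0.946) and Ccr1 (0.944). Ccl11 was most like Tgfbr2, a receptor of TGF-beta (0.902), Dab2 (0.902) and Pea15a (0.892). Values were lower for Ccl4 (Sema6d 0.844, Trim40 0.826, Acod1 0.818), Ccl5 (Trav9d-3, a T cell receptor segment, 0.812, Gjb2 0.780, Arhgap30 0.767) and Ccl20 (Wac 0.774, Wdr26 0.757, Ubn1 0.755). After each day's mean was taken out, r was lower for all of these pairs. It was then 0.636 to 0.789 for Ccl2, 0.660 to 0.714 for Ccl7, 0.735 to 0.855 for Ccl8 and 0.598 to 0.665 for Ccr2. For Ccl11 it was 0.790 to 0.832, for Ccl4 0.548 to 0.624, for Ccl5 0.600 to 0.687 and for Ccl20 0.612 to 0.7075.

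Ccl28 was most like Wfdc2 (0.958), Hoxb13, a homeobox gene expressed in the most distal gut (0.957), and Ctse, cathepsin E (0.948). These values were nearly as high after each day's mean was taken out (0.910, 0.901 and 0.891). Hoxb13 had 286 to 3703 on day 6 and 4749 to 6386 on day 0, a change of -2.24 ± 0.40 (adjusted p = 0.000143 in limma). The order of the 6 day 6 arrays by Hoxb13 was nearly that by Ccl28, with mouse 3 highest in both and mouse 7 lowest in both. Day 2 mouse 8, with the lowest squamous epithelium sum, had the lowest signal of its day for both genes (Hoxb13 2504, Ccl28 2150.2). Day 4 mouse 8, whose squamous sum was also low (844), lay among the other arrays of its day for both (Hoxb13 4967, Ccl28 3109). Wfdc2 fell by 1.78 ± 0.29 and Ctse by 1.87 ± 0.34 on day 6. The part that the sampled piece of colon plays in the Ccl28 values was not tested.

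**Figure D5:**
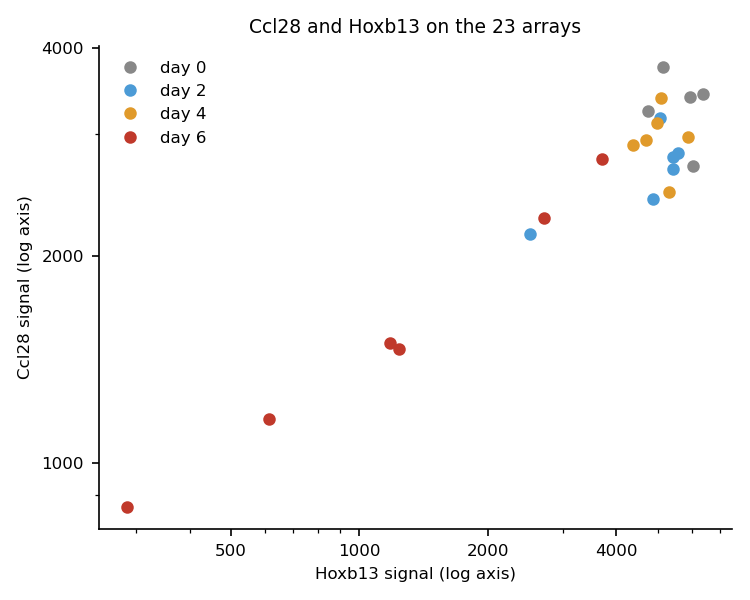
Ccl28 signal (probe set 1455577_at) against Hoxb13 signal on the 23 arrays, both on log axes, coloured by day. The day 6 arrays run from 863 and 286 to 2761 and 3703, and 1 day 2 array (mouse 8) lies among them.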

How the data were processed

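RNA of colon from 23 mice was measured on 23 arrays, and every array was placed in its day from its label. The deposited values are the authors' linear signal intensity per probe set, made with MAS5 per the submitters' processing notes, which give no version. From the values, each array had been scaled to a mean of 500 after trimming 2% at each end. Changes in the total amount of RNA are lost by such scaling. No array pair shared more than 0.00443% identical values, so all arrays counted as separate samples. Detection calls were not used here.

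Of 45101 probe sets, 64 controls were left out. The platform annotation gave 1 symbol for 34957 of the others, several for 920 and none for 9160, and only those with 1 symbol were named. Probe sets with at least 5 arrays above their own array's median (97.3 to 121) were kept (24627, of which 21641 had 1 symbol), and the probe set with the highest mean stood for a gene, which left 12464 genes. Values were analysed as log2(signal + 16) with limma 3.58.1 in R 4.3.3 (lmFit, eBayes with a variance trend). All 4 days were in 1 fit with 5 contrasts and a moderated F test, two-sided, with Benjamini-Hochberg adjustment over all genes. The fit was tested on simulated data. Intervals are at 95%.

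The genes and lists were chosen with earlier results of these data known. Named genes are all members, the 3 genes most like each tested member, up to 4 genes of each list with the largest change among those that passed on day 6, and every CC chemokine or receptor that passed anywhere. Alternatives varied the pseudocount, filter, probe set rule, normalization, variance trend and samples fitted, and left out each array in turn. Mouse numbers recur across days. Over 17 pairs of arrays with the same number, the correlation of their deviations was -0.158 to 0.704, with a median of 0.0457, and 3 pairs were above 0.1. The highest was between the mouse 8 arrays of days 2 and 4, which also shared low squamous and muscle markers. Separate animals were taken on each day, so the numbers were not taken to pair the samples. P-values weigh the differences between days against the spread between arrays of the same day in this experiment. They do not separate DSS from other differences between the days, such as that of the hybridization controls.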

Additional observations from a re-analysis of the deposited data

Results flagged for a closer look

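One array stood far from the others of its day. Ccl28 probe set 1450218_at was 939 on day 0 mouse 5, against 604 to 681 on the other 4 day 0 arrays, so that its gap was 0.729 of the day's range on the log scale. It was 1 of 60 groups of arrays examined, and chance alone puts about 1 in 20 past this limit. The same animal was also the highest of day 0 on the other Ccl28 probe sets (688 and 3749).

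The change from day 0 differed between neighbouring days for several members by the limma contrast of the days themselves. For day 4 against day 2 the difference was 0.74 for Ccl8. For day 6 against day 4 it was 2.03 for Ccl2, 2.22 for Ccl7, 1.70 for Ccl8, 1.03 for Ccl4, 0.74 for Ccl5, -0.93 for Ccl28 and 2.03 for Ccr2. Adjusted p-values stand with each gene above.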

How the results depend on the processing

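Each comparison was repeated under 13 other settings and with each of the 23 arrays left out. Ccl2, Ccl7, Ccl8, Ccl4, Ccl28 and Ccr2 passed in the same direction for day 6 minus day 0 in every setting in which they were tested. Members passing were 2 for day 4 minus day 0, and 1 without a filter, with the 60th percentile filter, with the hybridization controls as a covariate and without the 4 arrays that stood apart. For day 2 minus day 0 they were 0, and 1 when only those days were fitted (Ccl8, adjusted p = 0.0255). For day 4 minus day 2 they were 1, and 0 with the replicate block on mouse numbers, with the covariate and without the 4 arrays. Counts of genes moved by over 1.5 times as follows. Day 2 minus day 0 gave 10 genes, and 30 with every probe set separately, 4 without a variance trend, 60 when only those days were fitted, 0 with the replicate block, 4 with the covariate and 3 without the 4 arrays. Day 4 minus day 0 gave 2045 genes, 4616 by probe set and 171 with the covariate. Day 6 minus day 0 gave 4052 genes, 7266 by probe set, 2454 with the replicate block and 1067 with the covariate. Day 4 minus day 2 gave 1690 genes, 3214 by probe set, 1037 after median centring, 90 with the replicate block and 56 with the covariate. Day 6 minus day 4 gave 2840 genes and 4492 by probe set. The F test gave 5437 genes, 9807 by probe set, 3284 with the replicate block and 2623 with the covariate. Counts by probe set are over more tests, and the cause of the other moves was not tested. With 1 array left out, genes passing were 4 to 32, 1470 to 2164, 3491 to 4170, 714 to 1861, 2355 to 3051 and 4810 to 5468 in these 6 tests in that order. Members passing were 0 to 0, 1 to 3, 8 to 8, 0 to 1, 6 to 7 and 7 to 9. Leaving out mouse 1 or mouse 2 of day 0, or mouse 17 of day 2, gave 4 genes for day 2 minus day 0. It gave 5 for mouse 3 of day 0 and for mouse 8 of day 2, 6 for mouse 5 of day 0 and for mouse 6 of day 2, 18 for mouse 21 of day 6, and 32 for mouse 4 of day 0. For day 4 minus day 2 it gave 1102 for mouse 7 and 1001 for mouse 17 of day 2, and 939, 916 and 714 for mice 1, 3 and 4 of day 4. The lowest counts came without day 4 mouse 4 for both tests that end on day 4. In Krt5, a squamous keratin, the day 6 minus day 0 change reversed to -0.0886 with the covariate. The replicate block gave Ccl5 0.61 for day 6 minus day 0 (adjusted p = 0.166), Ccl20 -0.34 for day 4 minus day 0 (0.391), Ccl8 0.78 for day 4 minus day 2 (0.0957) and Ccl2 1.15 for day 4 minus day 0 (0.042). The hybridization controls differ between days, so the covariate and the day cannot be fully told apart. Dim genes such as Ccl3 are limited by their signal over background.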

Other observations

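Some CC chemokines moved in the middle of the course. Ccl6, a mouse ligand of Ccr1, averaged 7923 ± 827 on day 4 and 10039 ± 798 on day 2 (SD, n = 6 each), a change of -0.34 ± 0.08 (limma, adjusted p = 0.00905), where 4.11% of all genes were lower. It was lost with the hybridization controls as a covariate (adjusted p = 0.0625) and with the replicate block (0.085). Ccl9 averaged 1473 ± 255 on day 4 and 2054 ± 335 on day 2 (-0.48 ± 0.16, adjusted p = 0.0464), before its higher level of 3778 ± 1218 on day 6. That call was lost in 19 of 36 other settings, 13 of them with a single array left out, and without the 4 arrays that stood apart the adjusted p was 0.104. Ccl27a, a ligand of Ccr10, averaged 186 ± 29.1 on day 6 and 269.9 ± 52.4 on day 4 (-0.50 ± 0.14, adjusted p = 0.0143).

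Ccr7, by which dendritic cells and T cells reach lymph nodes, was too dim to be tested. Its signals were 16.8 to 89.8 on day 0, 28.9 to 78.1 on day 2, 7.21 to 109 on day 4 and 71.9 to 428 on day 6.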
